A study of Homo sapiens with 2 samples.

Results

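HAL-01 is a leukemia cell line that carries the t(17;19) translocation and expresses the fusion transcription factor TCF3::HLF. A single 5-kb bin of chromosome 18, chr18:73045001-73050000 (hg38), had 65 listed interactions in TCF3::HLF-HiChIP of these cells, more than any other bin of the genome. It is called the hub bin here. The bin was chosen by this number of interactions, and the nearby gene NETO1 was selected with it, so the numbers of interactions are given as a description with no test. Together, the hub bin (65 interactions) and NETO1 with 10 kb around it (11 interactions) hold 71 of the 49245 interactions in the list, and 5 of them join the hub bin with NETO1.

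The series holds 2 replicates of 1 condition, HAL-01 cells that stably express Cas9GFP and carry a knockout of wild-type TCF3 (wt-TCF3 KO), precipitated with an E2A (TCF3) antibody. Every cell measured carries the fusion, Cas9GFP and the knockout, and no cells without them, and no precipitation with another antibody, were analysed here. Per the study's methods the knockout cells were expanded as a clone, so the values describe a single clone of a single line. The authors merged the replicates before they called interactions, so each value is a single number without replicate error. An interaction is a pair of 5-kb bins joined by more read pairs than FitHiChIP, the loop caller, expected for their distance and coverage, and the contact count is the number of these read pairs. The intervals beside contact counts are exact Poisson 95% intervals and cover counting error only. The reads were not deduplicated, so read pairs need not be independent molecules.

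In HiChIP, chromatin contacts are ligated and then enriched with an antibody, so that a bound site is seen together with the regions it touches. TCF3::HLF joins the activation domains of TCF3 (E2A) to the basic leucine zipper of HLF, which binds the sequence TTAYGTAA in double-stranded DNA. NETO1 encodes a transmembrane protein with CUB domains that serves as an auxiliary subunit of kainate receptors and associates with NMDA receptors at synapses. It is known for its role in the brain, and its RNA was not measured in these data.

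The hub bin lies in a gene desert. The nearest protein-coding gene, NETO1 (ENSG00000166342.19), occupies chr18:72742314-72868146 on the minus strand, and its 5′ end lies 176.9 kb from the hub bin. Between NETO1 and FBXO15, the next protein-coding gene on the other side, are 1.21 Mb without a protein-coding gene, the gap ranked 8 of 227 on chromosome 18 and 217 of 15551 in the genome by length. No annotated lncRNA overlaps the hub bin, and the nearest one at higher coordinates starts 101 kb away. The other neighbors at lower coordinates are CBLN2, a secreted organizer of synapses, at 406.5 kb, and SOCS6, of the suppressor of cytokine signaling family, at 2715 kb. At higher coordinates the nearest edge of FBXO15, an F-box protein, lies at 1023 kb, that of TIMM21, a subunit of the mitochondrial inner membrane translocase, at 1099 kb and that of CYB5A, cytochrome b5, at 1201 kb.

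The sequence of the hub bin was not used to choose it. Exact matches to TTACGTAA or TTATGTAA on both strands, named HLF motifs here, occurred at 2 places in the hub bin, and both matched TTATGTAA on the plus strand. They started 15 bases apart, at chr18:73047969-73047976 and chr18:73047984-73047991, and lay within the same 12-base run, GAGTTATGTAAC, present at both places. The window of 200 bases around them, chr18:73047881-73048080 on the plus strand, is shown because it holds both motifs of the bin, which are in capitals.
Hub bin: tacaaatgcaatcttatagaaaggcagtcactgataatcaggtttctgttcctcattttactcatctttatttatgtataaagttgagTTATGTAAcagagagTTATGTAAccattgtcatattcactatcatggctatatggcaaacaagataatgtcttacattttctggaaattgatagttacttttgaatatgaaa

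Bins with 2 or more HLF motifs made up 6.51% of all 15983 chromosome 18 bins without unknown bases and 6.64% of all 53535 anchor bins, that is, bins with at least 1 listed interaction. Among the other anchor bins with 10 or more interactions they were more frequent, at 22.5% (253 of 1125). The 3 anchor bins next in rank by number of interactions held 2, 3 and 2 HLF motifs. Bins with a pair of motifs whose starts lay within 20 bases of each other were fewer. They made up 0.213% of the chromosome 18 bins (34 of 15983), 0.245% of the anchor bins (131 of 53535) and 1.78% of the other anchor bins with 10 or more interactions (20 of 1125). Of the 142 anchor bins with 20 or more interactions, 6 held such a pair, and the hub bin was 1 of these. The pair of 1 of these 6 bins is not reported here, so the comparison covers only the pairs shown. The pair of the hub bin is set beside those of 4 other such anchor bins, each written on the plus strand with the motifs in capitals and named by the gene it overlaps.
Hub bin, chr18:73047968-73047992, 65 interactions: gTTATGTAAcagagagTTATGTAAc
ARMC9, chr2:231241939-231241962, 32 interactions: gTTACATAActtttaTTATGTAAt
SLC1A2, chr11:35340837-35340858, 28 interactions: cTTATGTAAcaagTTACATAAg
EYA4, chr6:133316369-133316389, 23 interactions: cTTACATAAtagTTACATAAt
HDAC4, chr2:239223110-239223135, 20 interactions: gTTACGTAAgatcaagtTTACATAAg
The orientation and the spacing differed between them. Of those shown, the motifs of the hub bin and of EYA4 each pointed the same way, 15 and 11 bases apart from start to start, and those of ARMC9, SLC1A2 and HDAC4 were 14, 12 and 16 bases apart.

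HLF motifs alone did not mark the bin that had the interactions. The bin chr18:73055001-73060000, 10 kb from the hub bin, held 4 HLF motifs and had 0 listed interactions. The bin next to the hub, chr18:73050001-73055000, held 0 HLF motifs and had 27 interactions. The other 9 bins within 25 kb of the hub bin had 0 or 1 interactions each and 0 to 4 motifs. The hub bin had 38.0% G+C, close to the 33.8 to 41.3% of these neighbors. It held 0 matches to 4 core forms of the CTCF motif (AGGTGGCAG, AGGGGGCGC, AGATGGCAG and AGAGGGCGC, on both strands), and 14.7% of the chromosome 18 bins held at least 1.

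The hub bin was ranked 1 of 53535 anchor bins by its number of interactions and also by its summed contact count, which was 2519. The median anchor bin had 1 interaction, 78.0% of the anchor bins had just 1, and 2.10% had 10 or more (1126 bins, 26 of them on chromosome 18). The next bins were in SNTG1, which encodes a syntrophin, on chromosome 8 with 51 interactions, in the lncRNA CCDC26 on chromosome 8 with 50 and in PHACTR2, a phosphatase and actin regulator, on chromosome 6 with 49. The hub bin took part in 5.70% of the 1140 interactions of chromosome 18 and in 8.49% of their summed contact count. On this chromosome the adjacent bin, with 27 interactions, was ranked 2.

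**Figure D1:**
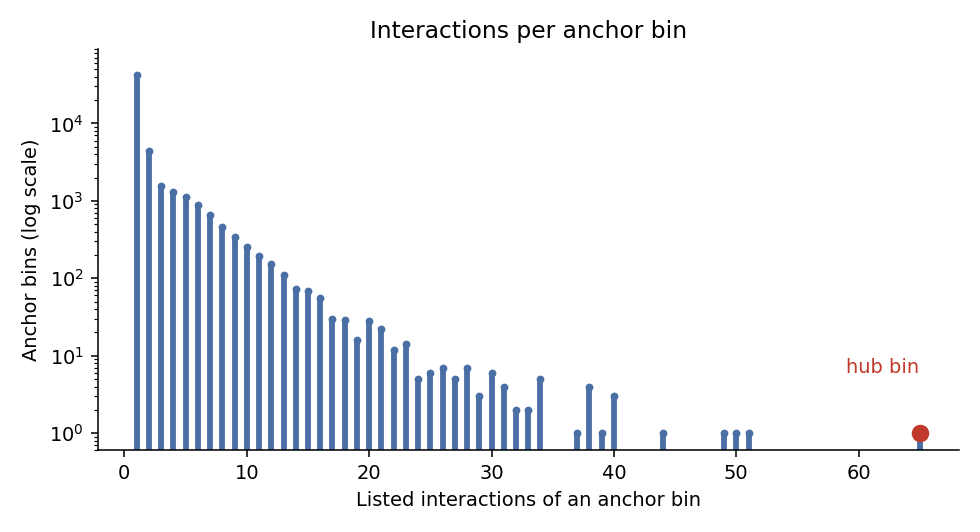
Number of anchor bins (log scale) by their number of listed interactions. Each bar is the number of bins with exactly that many interactions, and the hub bin (red) has 65, against 51 for the next bin.

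The contacts of the hub bin reached 1465 kb toward lower and 2125 kb toward higher coordinates, across 3.60 Mb. They included 18 partner bins at lower coordinates, in the direction of NETO1, and 47 at higher coordinates, toward FBXO15 and beyond. The share at higher coordinates was 72.3% (Wilson 95% interval 60.4 to 81.7). Within 3 Mb, the higher side also had more protein-coding genes (11 against 4) and more anchor bins (126 against 47). These anchor bins include the partner bins of the hub bin itself, 47 on the higher and 18 on the lower side. Of the 107 interactions within 3 Mb that did not involve the hub bin, 79 had both bins on the higher side, 2 had both on the lower side and 26 had 1 bin on each side. The adjacent bin counts here to the higher side, and its 27 interactions, 15 toward higher and 12 toward lower coordinates, are among the 107. The part of these differences in the direction of the hub contacts was not tested. The median distance was 295 kb on the lower side and 825 kb on the higher side. Contact counts were alike on both sides, with a median of 32 (19 to 139) at lower and 30 (15 to 149) at higher coordinates.

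**Figure D2:**
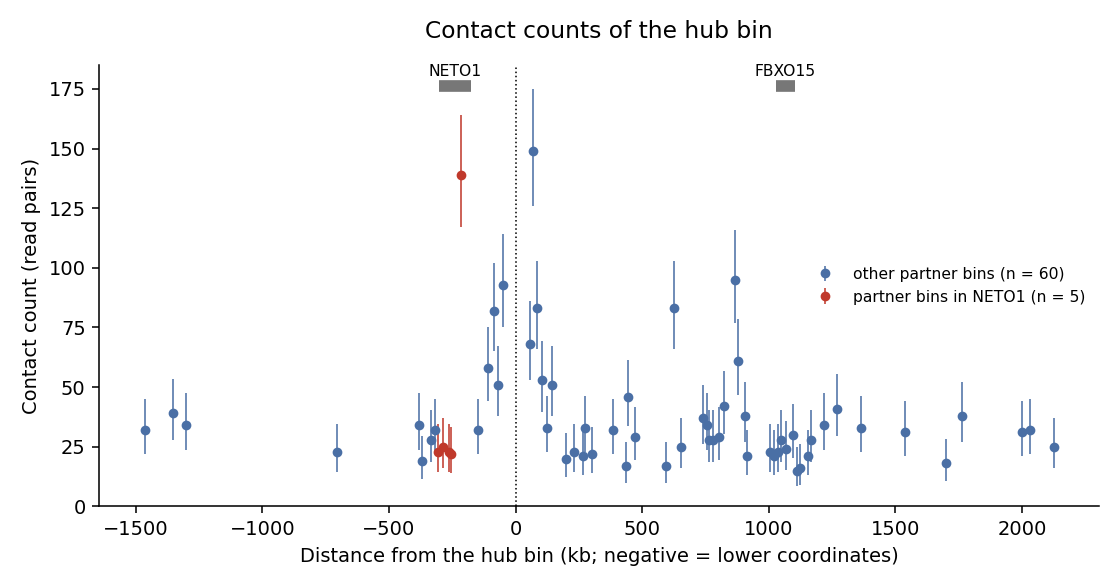
Contact count (read pairs) of each of the 65 hub interactions against the distance of the partner bin from the hub bin in kb, negative toward lower coordinates. Points are single merged values, bars are exact Poisson 95% intervals, gray blocks at the top mark the bodies of NETO1 and FBXO15, and red points are the 5 partner bins in NETO1, of which 1 stands at 139 and the other 4 between 22 and 25.

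The hub bin reached farther than most anchor bins. The median distance of its interactions was 705 kb, and 22 of the 65 (33.8%) spanned more than 1 Mb, against 13.7% of the list. Among the 1126 anchor bins with 10 or more interactions, whose median value was 268 kb, it was ranked 39 by median distance. It was ranked 148 by its distance to a protein-coding start site, 177 kb against a median of 18.4 kb for the others. The SNTG1 and CCDC26 bins had like median distances of 650 and 662 kb, and the PHACTR2 bin had 435 kb.

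The strongest contacts were few. The largest contact count, 149 (126 to 175), joined the hub bin with chr18:73115001-73120000, 70.0 kb toward higher coordinates, in the gene desert. The second, 139 (117 to 164), joined it with chr18:72830001-72835000 in the body of NETO1, 215 kb toward lower coordinates. The intervals of these counts overlap, so their order is within counting error. The third, 95 (76.9 to 116), reached a lncRNA without a gene symbol at chr18:73910001-73915000, 865 kb away. Then followed 93 (75.1 to 114) with the nearest bin at lower coordinates, 50 kb away, and 83 (66.1 to 103) with chr18:73670001-73675000, 625 kb away. Another count of 83 (66.1 to 103) joined the hub bin with a bin 85.0 kb toward higher coordinates. These last 4 counts, of 95 to 83, do not differ beyond their intervals. In FitHiChIP's binomial test of the read pairs, the smallest P value was P = 4.93e-105, for the contact in NETO1. The next smallest were P = 1.03e-102 for the contact at 70.0 kb, P = 1.55e-70 for that at 865 kb, P = 3.26e-61 for that at 625 kb and P = 4.71e-40 for that at 50 kb, all from the same binomial test on the merged reads.

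Below them, the counts were small. In all, 7 interactions had a contact count of 80 or more and 30 had fewer than 30. The nearest partner bin at higher coordinates, 55.0 kb away, had a count of 68 (52.8 to 86.2). The farthest partner bins had counts of 32 (21.9 to 45.2) at 1465 kb and 25 (16.2 to 36.9) at 2125 kb. The lowest count, 15 (8.4 to 24.7), was with a bin at TIMM21 and had a q-value of 0.00912, just inside the limit of 0.01 for the list.

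Because contact counts depend on distance, each was divided by the median count of all listed interactions of the same distance. The median of these ratios was 1.33, with 0.667 as the lowest and 5.91 as the highest, and a ratio of 1 is the list's own median. The list holds only interactions that passed the q-value limit, and the hub bin was chosen for how many of its interactions did so. The highest ratio, 5.91, belonged to the contact in NETO1, which had the largest count of the 358 interactions that span 215 kb. Close to it was the bin 70.0 kb away, with a ratio of 5.73 and the rank 2 of 973. The contacts at 625 and 865 kb had ratios of 4.15 and 4.13, and the other ratios reached at most 3.44. The ratios carry the counting error of the contact counts, so those of 4.15 and 4.13 are not shown to differ from 3.44. For 17 of the 65 interactions the ratio was under 1.

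**Figure D3:**
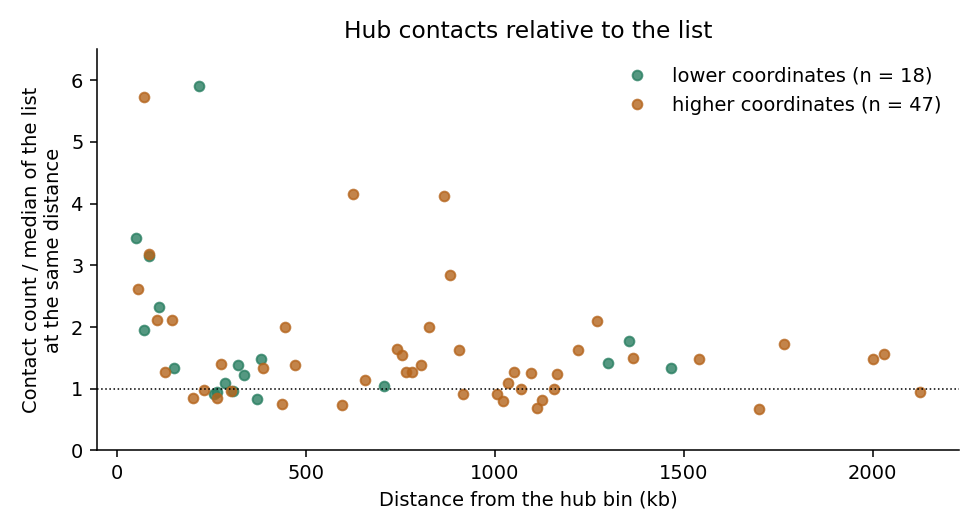
Ratio of each hub contact count to the median contact count of all listed interactions at the same distance, against distance in kb. Each point is 1 interaction, at lower (green) or higher (brown) coordinates, the dotted line marks a ratio of 1, and the 4 ratios above 4 lie at 70.0, 215, 625 and 865 kb.

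Within 100 kb of the hub bin, 6 interactions had counts of 51 to 149, with a median of 82.5 against 26.0 for the list at these distances. From 100 to 500 kb the median of 23 interactions was 29.0 against 24.0, and from 500 to 1000 kb that of 14 interactions was 31.5 against 22.0. Beyond 1000 kb it was 29.0 over 22 interactions, against 21.0. Of the 14 interactions from 500 to 1000 kb, 13 lay at higher coordinates. Across the 65 interactions, Spearman's rho between distance and contact count was -0.26, as a description over bin pairs that share the hub bin.

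Neighboring significant bin pairs were merged by the caller, and the summed contact count of such a group (sumCC) is given in each of its rows. Of the hub interactions 44 stood alone (67.7%, against 92.3% of the list) and 21 belonged to merged groups. The largest group joined the hub bin and its adjacent bin with chr18:73100001-73180000. It had a sumCC of 1090 and 5 listed interactions, and a fraction of 0.594 of its bin pairs was significant. On the other side, chr18:72975001-73000000 formed a group with the hub bin and its adjacent bin, with a sumCC of 418 and 2 interactions. The contact in NETO1 belonged to a group of the hub bin and its adjacent bin with chr18:72825001-72835000. This group covered a pair of neighboring bins in NETO1, and its sumCC of 267 includes read pairs of the adjacent bin.

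In the window from the lowest to the highest partner bin, chr18:71580001-75175000, the list had 152 interactions, of which 65 (42.8%) involved the hub bin and 89 (58.6%) the hub bin or its adjacent bin. The window was set by the partners of the hub bin, which was chosen for their number, so these shares are a description only. Only 2 listed interactions joined a pair of partner bins. They joined the bins starting at chr18:73670001 and chr18:73850001 (contact count 27) and those starting at chr18:73785001 and chr18:73910001 (contact count 18). Bin pairs absent from the list are not shown to lack contact, and this number was not compared with that of other anchor bins. For 54 of the 65 partner bins (83.1%) the contact with the hub bin was the only one listed, close to the median of 81.8% for the other anchor bins with 10 or more interactions. The partner bin at 865 kb had the most interactions of its own, 10, followed by the bin at 625 kb with 7 and the bin at 70.0 kb with 4. These 3 bins were also among the 6 with the largest contact counts with the hub bin.

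The adjacent bin, chr18:73050001-73055000, had 27 interactions, 12 at lower and 15 at higher coordinates, with counts of 16 to 38 and a median of 27.0. They began at 105 kb and reached 2980 kb on the lower side and 2850 kb on the higher side, farther than those of the hub bin on both sides. Among the listed interactions it shared 0 partner bins with the hub bin, and 0 of its partners lay next to a partner of the hub bin. The caller merges neighboring significant bin pairs and lists only some pairs of a group, so this separation cannot be read as a difference in contacts. Merged groups of the hub bin, among them those with chr18:72825001-72835000 and chr18:73100001-73180000, also covered the adjacent bin. Together the hub bin and the adjacent bin had 92 interactions.

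Most contacts of the hub bin fell outside protein-coding genes. Of the 65 partner bins, 35 lay in the gap between NETO1 and FBXO15, and 36 overlapped no protein-coding or lncRNA gene. Bins in a protein-coding gene body numbered 16 (24.6%, interval 15.8 to 36.3), against 55.6% of the partner bins of the other anchor bins with 10 or more interactions (partner bins that are such anchors themselves left out) and 38.5% of chromosome 18 bins. Bins within 10 kb of a protein-coding start site numbered 10 (15.4%, interval 8.58 to 26.1), against 33.9% and 21.1% of the same bins. The SNTG1 and CCDC26 bins, with 15.7% and 6.0% of partner bins at start sites, were near this share or below it, and the PHACTR2 bin had 40.8%. The interval for start sites holds the 21.1% of chromosome 18 bins. Other bins near the hub bin were not counted for genes, so the part of the gene desert in these shares was not tested.

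The genes reached at a start site were NETO1, FBXO15, TIMM21, CYB5A, C18orf63, CNDP1 and ZNF407. FBXO15 had 6 such partner bins, with counts of 15 to 30 at 1.020 to 1.110 Mb, and TIMM21 shared 2 of these bins. CYB5A had a count of 34 (23.5 to 47.5) at 1.220 Mb, with a ratio of 1.62. C18orf63 had the largest count at a start site, 41 (29.4 to 55.6) at 1.270 Mb, and a ratio of 2.10, the largest of the 30 listed interactions of this distance. CNDP1, a carnosine dipeptidase, and ZNF407, a zinc finger protein, shared a bin with a count of 31 (21.1 to 44) at 1.540 Mb. At NETO1, the bin within 10 kb of a start site lay 4.04 kb from the start of an alternative transcript near the 3′ end of the gene and had a count of 23 (14.6 to 34.5). CBLN2 had none, and its nearest partner bin, with a count of 34 (23.5 to 47.5), lay 26.5 kb from its start.

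In NETO1 and 10 kb around it, 11 bins of 30 had a listed interaction, each with 1, and all 11 interactions led toward higher coordinates. The hub bin was the partner in 5 of them, the adjacent bin in 3 and bins deeper in the gene desert in 3. With the hub bin, the contact counts were 139 (117 to 164) at chr18:72830001-72835000, 22 (13.8 to 33.3) at chr18:72790001-72795000, 23 (14.6 to 34.5) at chr18:72780001-72785000, 25 (16.2 to 36.9) at chr18:72760001-72765000 and 23 (14.6 to 34.5) at chr18:72740001-72745000. The first stood apart from the other 4, whose intervals overlap. Of their summed count of 232, 139 came from 1 bin. With the adjacent bin, the counts were 37 (26.1 to 51.0), 28 (18.6 to 40.5) and 22 (13.8 to 33.3), in bins 50.6, 20.6 and 5.65 kb from the NETO1 start site.

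**Figure D4:**
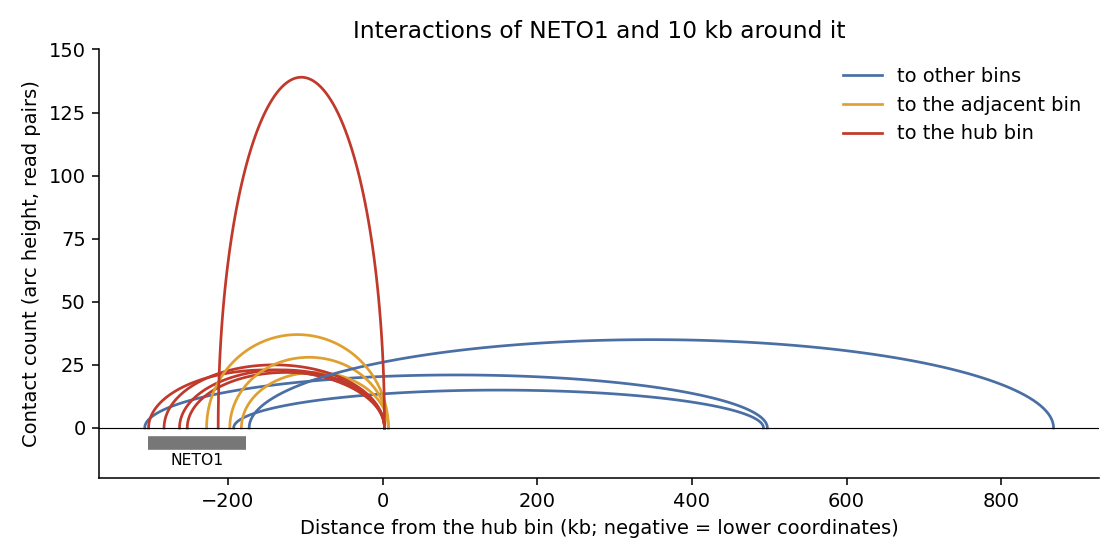
The 11 interactions of NETO1 and 10 kb around it, drawn as arcs between the 2 bins, with distance from the hub bin in kb on the horizontal axis and the contact count as the height of the arc. The arc of 139 to the hub bin (red) is higher than the other 10, which lie between 15 and 37.

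The 3 interactions with other bins had counts of 35 (24.4 to 48.7), 15 (8.4 to 24.7) and 21 (13.0 to 32.1). The first of these joined the bin 4.35 kb upstream of NETO1 with chr18:73910001-73915000, the lncRNA bin that was also a strong partner of the hub bin, across 1040 kb. It was ranked 4 of 39 interactions of this distance. The bin that holds the annotated 5′ end of NETO1, chr18:72865001-72870000, had 0 listed interactions. None of the 3 promoter windows of NETO1 in the RefSeq table (hg38 build GRCh38.p14, 250 bases before to 50 after a start) held an HLF motif, and 1.01% of all 35116 windows held one. Just outside the 10 kb, the nearest interactions had counts of 32 (21.9 to 45.2) at 12.3 kb beyond the 3′ end and 32 (21.9 to 45.2) at 26.9 kb beyond the 5′ end, both with the hub bin.

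The bin of NETO1 with the strong contact held 2 HLF motifs, both of the form TTACATAA on the plus strand, which is TTATGTAA on the minus strand. They lay at chr18:72834947-72834954 and chr18:72834977-72834984, 30 bases from start to start. In GENCODE, both fall in the last exon of a short NETO1 transcript, chr18:72834039-72835319, in its 3′ untranslated part, and in an intron of the longer transcripts. The bins of the other 4 contacts with the hub held 3 motifs in 1 bin and 0 in the remaining 3. The 2 motifs of this NETO1 bin pointed opposite to the pair of the hub bin on the reference strand.

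Across all partner bins, HLF motifs were about as frequent as elsewhere. Of the 65 partner bins, 21 (32.3%, interval 22.2 to 44.4) held at least 1. The share was 41.9% (interval 32.0 to 52.4) of 86 bins that lay 25 kb from a partner bin and were no anchors, 29.6% of the partner bins of the other anchor bins with 10 or more interactions, and 30.6% of chromosome 18 bins. The interval for the hub partners holds each of these values. Partner bins with and without a motif had median contact counts of 30 and 32 and median ratios of 1.38 and 1.33. A pair of motifs within 20 bases occurred in 1 partner bin, 705 kb toward lower coordinates, with a contact count of 23. By contrast, 66.7% of the other anchor bins with 10 or more interactions held an HLF motif (interval 63.9 to 69.4), and so did the hub bin. The share was 28.5% of anchor bins with 1 interaction, 34.3% with 2 to 4, 49.7% with 5 to 9, 64.2% with 10 to 19 and 83.8% with 20 or more. The interactions were called with MACS2 peaks of the same HiChIP reads as reference, and the list does not state which bins held a peak. The part of the peaks in this rise was not tested. CTCF core forms were found in 10 of the hub partner bins (15.4%, interval 8.58 to 26.1) and in 14% of the bins 25 kb away.

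**Figure D5:**
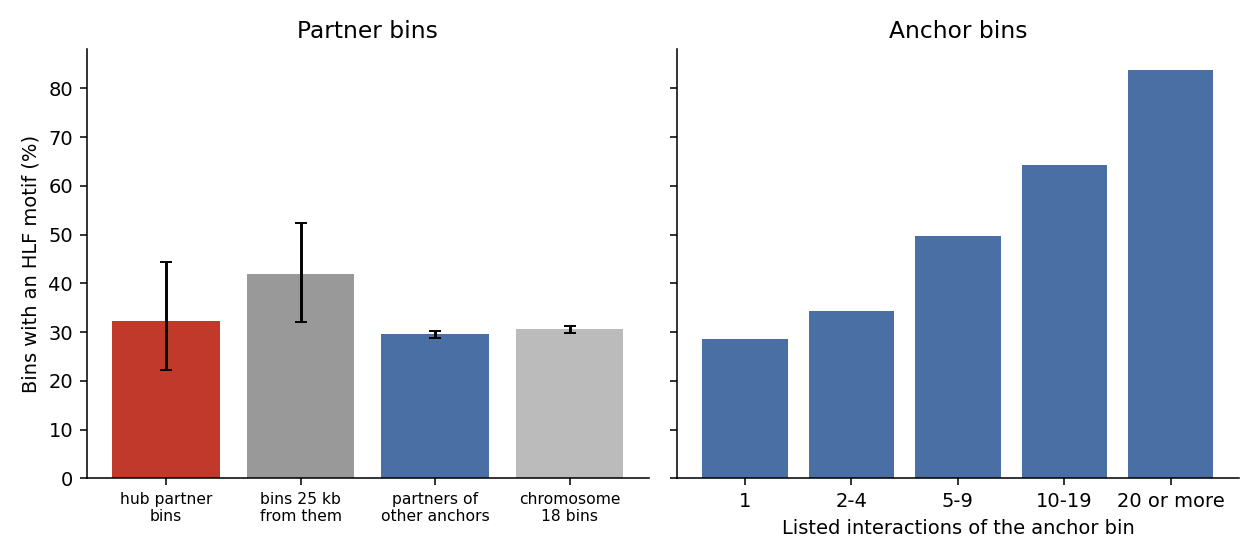
Left, share of bins with at least 1 HLF motif (percent) in the 65 hub partner bins, in bins 25 kb from them, in the partners of the other anchor bins with 10 or more interactions and in all chromosome 18 bins, with Wilson 95% intervals. Right, the same share in anchor bins grouped by their number of listed interactions, without intervals, from 28.5% at 1 interaction to 83.8% at 20 or more.

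Among protein-coding genes, 64.5% had at least 1 listed interaction in the gene body or 10 kb around it, and 8.83% (1764 of 19970) had 11 or more, as NETO1 did. Longer genes cover more bins. Of the 1553 genes with 80 to 125% of the length of NETO1 (126 kb), 325 (20.9%) had 11 or more, and their median was 4. The 11 of NETO1 include the 5 with the hub bin, which was chosen for its number of interactions.

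NETO1 was also placed in a list of 25 genes for ionotropic glutamate receptor subunits, NETO proteins, cerebellins and the scaffold DLG4. Of these, 19 had at least 1 interaction and 6 had 0, and the median was 2, against 1 for all protein-coding genes. Their median length was 169 kb, against 27.5 kb for all genes. NETO1 was ranked 5 by number and had the largest contact count of the list, 139, which was with the hub bin. That bin was chosen for its number of interactions and took part in 5 of the 11 interactions of NETO1. The second largest count of NETO1 was 37. The kainate receptor subunit genes GRIK1 (23 interactions), GRIK3 (15) and GRIK4 (13) and the NMDA receptor subunit gene GRIN2B (16) had more interactions than NETO1, with largest counts of 43, 42, 31 and 35. GRIK2 and GRIK5 had 1 each. Of the AMPA receptor subunit genes, GRIA4 had 10, GRIA1 had 6, and GRIA2 and GRIA3 had 0. NETO2, the paralog of NETO1, had 0 as well. CBLN2, the neighbor of NETO1, had 2 with counts of at most 20, neither of them with the hub bin.

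Sequence shared between the hub bin and its partners was counted as well. The hub bin shared a 31-base sequence, on either strand, with 15 of the 65 partner bins, and at most 11 such sequences with any of them. The contact in NETO1 shared 0 and the contact with the largest count shared 4. Other bins were not counted in this way, so these numbers have no background.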

How the data were processed

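HiChIP libraries of HAL-01 TCF3-KO cells (2 replicates) were made with MNase and an E2A antibody. According to the study's methods and the submitters' processing notes, the authors trimmed reads with Trim Galore 0.6.6, merged the replicates, aligned to hg38 with BWA-MEM, parsed pairs with pairtools without deduplication, used MACS2 peaks as reference, called interactions with FitHiChIP (bins of 5 kb, distances of 50 kb to 3 Mb, q-values below 0.01) and merged neighboring bin pairs. The version of FitHiChIP is not given in the sources used here. The deposited list gives, per interaction, the contact count and its sum over a merged group (not normalized), the p-value and q-value, and the fraction of significant bin pairs in the group. It does not state which bins held a peak, and gives no counts per replicate and no total depth. Its contact counts sum to 1268490, with a median of 24.0 (7 to 615). All bins lay within hg38 chromosomes (0 past an end).

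The members, gene list and comparisons were chosen with earlier results of these data known. Hub interactions were those with the hub bin as either bin, and NETO1 interactions those with a bin that overlaps the gene body or 10 kb around it (GENCODE release 44). Motifs were exact matches on both strands. No test was run, since 1 merged library leaves no replicate error, and Poisson and Wilson 95% intervals cover counting error only. Named were NETO1, the glutamate list, the 3 nearest protein-coding genes per side, genes with a start site within 10 kb of a partner bin, the 5 largest counts and smallest P values, the nearest and farthest partners, and the 3 anchor bins next in rank. The bins next to the hub, the pair windows, their genes and shared partners were picked after values were seen. Alternatives concerned the q-value, contact count, distance, widths and motifs. Scripts, tested on simulated data, used Python 3.11.15, numpy 2.4.6, pandas 2.3.3 and scipy 1.17.1, and figures matplotlib 3.10.9.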

Additional observations from a re-analysis of the deposited data

How the results depend on the processing

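The hub bin was ranked 1 under each alternative run: a q-value under 0.001 or 1e-05, 20 or more contact counts, only interactions within 1 Mb, merged bin ranges and summed contact counts. It had 43 interactions within 1 Mb and 48 to 93 under the other settings. Of 40 alternative values, 26 stayed within 1.5 times the reported count, rank or ratio or, for shares, within its Wilson interval. NETO1 had 5 interactions with a q-value under 1e-05, 2 within 10 kb of the start site and 17 within 50 kb of the gene body. Interactions joining the hub bin with NETO1 fell from 5 to 1 with a q-value under 1e-05 and to 0 within 10 kb of the start site, and numbered 8 within 50 kb or with the hub widened by 1 bin on each side. The hub bin held 5 matches to the looser TTANNTAA and 0 to TTACGTAA alone. Partner bins with TTANNTAA made up 93.8% (85.0% of chromosome 18 bins), and widened partner bins with an HLF motif 70.8% (63.9%). Partner bins with a protein-coding start site inside numbered 4, and those in a gene body 16. The count with each merged group taken once, 60, was chosen after seeing the data. No paired analysis was possible because the replicates were merged before calling, and leaving out a replicate was not possible for the same reason. Low counts limit the order of most contacts, as their intervals overlap.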

Other observations

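No listed interaction joined the bins at 625 and 865 kb, both partners of the hub bin with high contact counts. The bin at 865 kb, in a lncRNA, had its largest other count, 67, with a bin 60 kb away, and reached 1195 kb back to the 3′ side of NETO1 with a count of 22. The bin at 625 kb had its largest other count, 37, with a bin that lies 575 kb away in the direction of the hub bin.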
